A study of Xenopus laevis with 5 samples.

Results

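The genes described here encode the extracellular matrix of frog skin, the integrins and dystroglycan that hold cells to it, and the enzymes that build it or cut it. They were chosen by gene symbol: collagens, laminins, integrins, matrix metalloproteinases and their inhibitors, fibrillins, fibulins, nidogens, link proteins, thrombospondins, collagen-modifying enzymes, and single genes such as fn1, sparc and dag1. The rule found 100 probe sets of 71 genes among 15491 probe sets and 7531 named genes, with the L and S copies (homeologs) of a gene counted apart. A probe set is a group of array oligonucleotides meant to read 1 transcript, though some can match several. The rule reads symbols and no measured value, though it was written with earlier results of these data known. Laminins, hspg2 and ADAMTS proteases were not analysed here, because no probe set with a single such symbol was found.

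RNA came from Xenopus laevis animal caps, the embryonic ectoderm that forms epidermis when cultured. The ICD group (3 arrays) came from embryos that received ICD mRNA at the 2-cell stage, and the HMM group (2 arrays) from embryos that received HMM mRNA in the same way. In both groups caps were cut at stage 9 to 10, kept on coverslips coated with fibronectin in Danilchik's medium with 0.1% BSA, and harvested for RNA at the equivalent of stage 22. The labels do not spell out ICD or HMM. In this field the first is commonly the Notch intracellular domain and the second a truncated human Mastermind that blocks Notch targets, which is background here. No uninjected explants were analysed, so which group moved cannot be told, and below "rose" means higher in ICD than in HMM. How many explants or clutches made up a sample is not stated, so p-values measure only the spread between these samples, which may be technical.

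Epidermal cells sit on a basement membrane, a sheet of laminin, type IV collagen, nidogen and other proteins. Fibronectin forms fibrils between the ectoderm and the underlying mesoderm in the frog gastrula and is bound by the integrin dimer of the alpha 5 and beta 1 chains. Laminin is bound by alpha 3 beta 1 and alpha 6 integrins and by dystroglycan. Metalloproteinases cleave matrix proteins, and TIMP proteins inhibit them.

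Each array gave MAS5 signals scaled to a common mean, with medians from 62.1 to 72.7. ICD replicate 3 stood apart in its poly-A spike-in controls, whose median was 2.95, against 318.2 to 355.5 on the other arrays. All 8 probe sets of epidermal markers were kept, and 1 (tp63.L, at 145.5 to 151.3 in ICD and 35.5 to 61.2 in HMM) was called higher. The epidermal keratin gene krt70.S read 11196.1 to 15645.6 in ICD and 11610.9 to 14504.9 in HMM on its brightest probe set. Markers of ionocytes and multiciliated cells moved with the groups. Summed signal of 4 ionocyte markers was 95.1 to 214 in ICD and 7126 to 11847.3 in HMM, and that of 5 probe sets for multiciliated cells was 97 to 438.4 in ICD and 1806.3 to 4530.9 in HMM. All 9 of these probe sets were lower in ICD in the test used below. In RNA of whole explants, fewer cells of a type and less RNA per cell cannot be told apart. The list of mesoderm and muscle summed to 778.8 to 1199.8 in ICD and 403.5 to 542.3 in HMM over 14 probe sets, of which 1 (ckm.L) was called higher, and 10, myod1, tbxt and shh among them, were too dim to test. Most of each sum was signal of ckm.L, whose brightest probe set read 493.7 to 634.3 in ICD and 156 to 217 in HMM. This call of ckm.L, like that of tp63.L, failed when either ICD replicate 2 or 3 was left out. Leaving out HMM replicate 2 removed both calls as well. With 1 HMM array left there, the difference was 1.29 for ckm.L and 1.21 for tp63.L. On the other kept probe sets of ckm.L the groups overlapped and neither was called (limma adjusted p = 0.298 on both). There ICD replicate 2 read 36.5 and 42.7, and the HMM arrays 35.9 and 36.6 on the first and 47.7 and 36.2 on the second. Another kept gene of the list, not.S, differed by -0.02 on the log2 scale, and its groups overlapped. For neural crest and mesenchyme the 9 probe sets summed to 339.3 to 1185.5 in ICD and 163.4 to 212.7 in HMM. Most of the sum in ICD was signal of snai1.S, at 213.3 to 971, against 41.2 to 107.6 in HMM. Of these 9, 7 were too dim to test, sox10, foxd3 and pdgfra among them. Of the dim ones sox9.S, snai2.L, foxd3.L and 1 of pdgfra.L had every ICD array above HMM, and the others overlapped. The 2 kept, snai1.S and snai2.S, were not called, though both had an unadjusted p under 0.05 in limma. Their differences were 2.67 and 1.31, with every ICD array above HMM, as in 20.4% of all kept probe sets. Both passed without ICD replicate 1 (limma adjusted p = 0.0068 and 0.0162). However, snai2.S was kept through ICD replicates 2 and 3 alone. Endothelial markers (3 probe sets, all too dim) summed to 39.9 to 46.1 in ICD and 43.4 to 54.5 in HMM, and myeloid markers (9 probe sets, 7 too dim, none called in limma and none with an unadjusted p under 0.05) to 313.9 to 480.8 in ICD and 485.9 to 593.6 in HMM. No marker probe set was at 0 on all arrays. What part these lists had in the matrix results was not tested.

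Explants that received ICD had higher transcript levels of several matrix-related genes than explants that received HMM, each on at least 1 probe set. These were fibronectin, SPARC, type XVIII collagen, a fibrillin, a hyaluronan link protein and the prolyl isomerase gene fkbp10. The integrin chains alpha 3 and beta 1, dystroglycan, and the metalloproteinases mmp3 and mmp28 were higher as well. Other tested probe sets of the beta 1 chain, the link protein and dystroglycan did not pass. A probe set was tested where it read above 42.6 on at least 2 arrays, which 35 of the 100 did, beside 64.4% of all probe sets. The test was limma on log2(signal + 5.9) over all 9981 kept probe sets, with Benjamini-Hochberg adjustment and a threshold of 0.05. Of the 35, 16 were higher in ICD, none was lower and 19 did not pass. Of all kept probe sets 5.05% were called, 1.55% higher and 3.5% lower. At an unadjusted p under 0.05 there were 22 of the 35, again none of them lower. Of all 9981 kept probe sets, 1959 had such a p, in either direction. By gene, read on its brightest probe set, 13 of 28 were higher and none was lower, against 1.66% higher and 3.42% lower of all genes. In 23 of the 35 every ICD array lay above both HMM arrays and in none below, where the groups were apart in 37.5% of all kept probe sets (20.4% ICD above HMM and 17% below). The median difference was 1.28 on the log2 scale, beside 0.08 over all kept probe sets.

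A filter on dim signal favours probe sets that are high in 1 group. Of the 35, 24 passed the filter value on both HMM arrays, 8 on 1 and 3 on neither; of the 16 called, 12 passed it on both and 4 on 1. Fitted with no filter, 15 of all 100 were higher in ICD and none was lower even at an unadjusted p under 0.05, where 0.833% of all 15491 probe sets were higher. The median over the 100 was then 0.14, beside 0.02 over all probe sets.

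**Figure D1:**
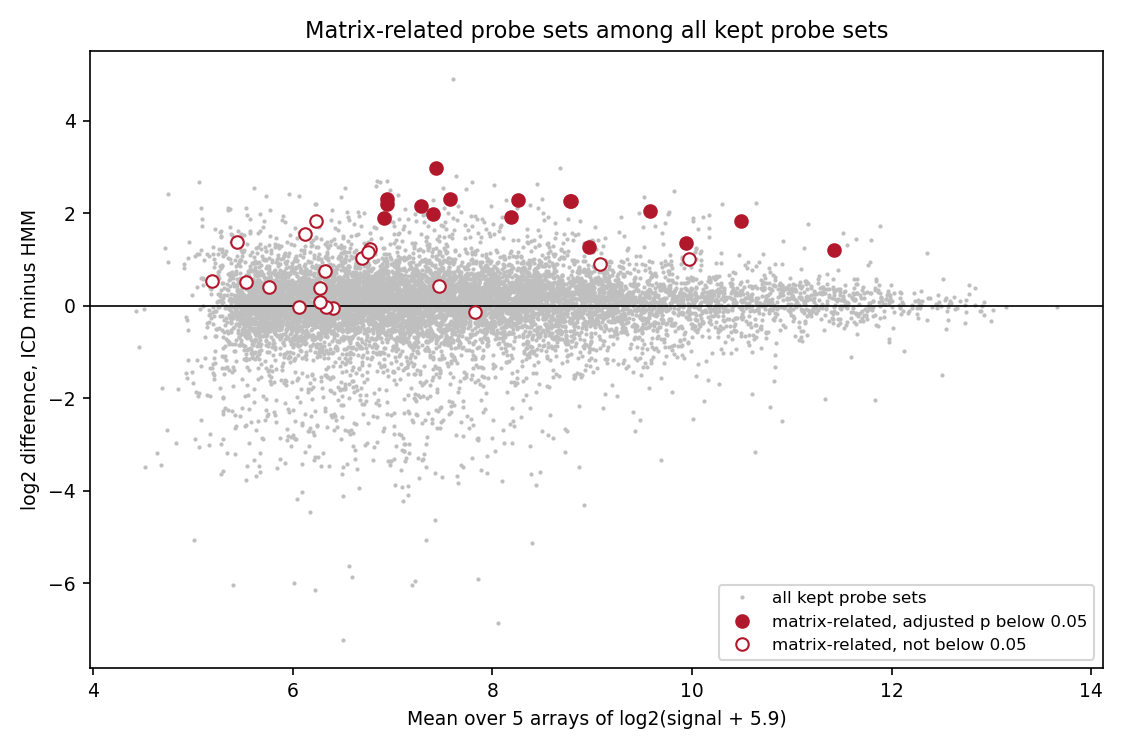
Difference in log2(signal + 5.9), ICD minus HMM, on the y axis against mean log2(signal + 5.9) over the 5 arrays on the x axis. Grey points are the 9981 kept probe sets, filled red circles the 16 matrix-related probe sets with adjusted p below 0.05 and open red circles the other 19; the filled circles lie between 1.21 and 2.98, and the long tail of grey points below 0 holds no red circle.

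Each call depended on particular arrays. In the limma fit without ICD replicate 2 none of the 35 was called, and 22 of all kept probe sets were. There 21 of the 35 had an unadjusted p under 0.05, but the share over all kept probe sets was not counted. No call held without HMM replicate 2 either, a fit with 1 HMM array left. Without ICD replicate 3 the count was 4, beside 151 called of all kept probe sets (30 higher). Without ICD replicate 1 it was 20, beside 843 called of all (362 higher). The calls of col18a1.L, itga3.L and mmp3.L were lost only in the fits without ICD replicate 2 and without HMM replicate 2. That of fbn3.L was lost without HMM replicate 1 as well, and those of col18a1.S, itgb1.S, mmp28.L and 1 probe set of fn1.S without ICD replicate 3 as well. The other 8, for sparc.L, sparc.S, hapln3.L, fkbp10.L, dag1.L and 3 probe sets of fn1.S, held in the fit without ICD replicate 1 and in no other of the 5. Leaving out a replicate also removes degrees of freedom, and without an HMM array the other one is assumed to vary like the ICD arrays. Across these 5 fits the median difference of the 16 lay between 1.90, reached without ICD replicate 3, and 2.27, reached without ICD replicate 1, and the smallest single difference was 0.98.

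**Figure D2:**
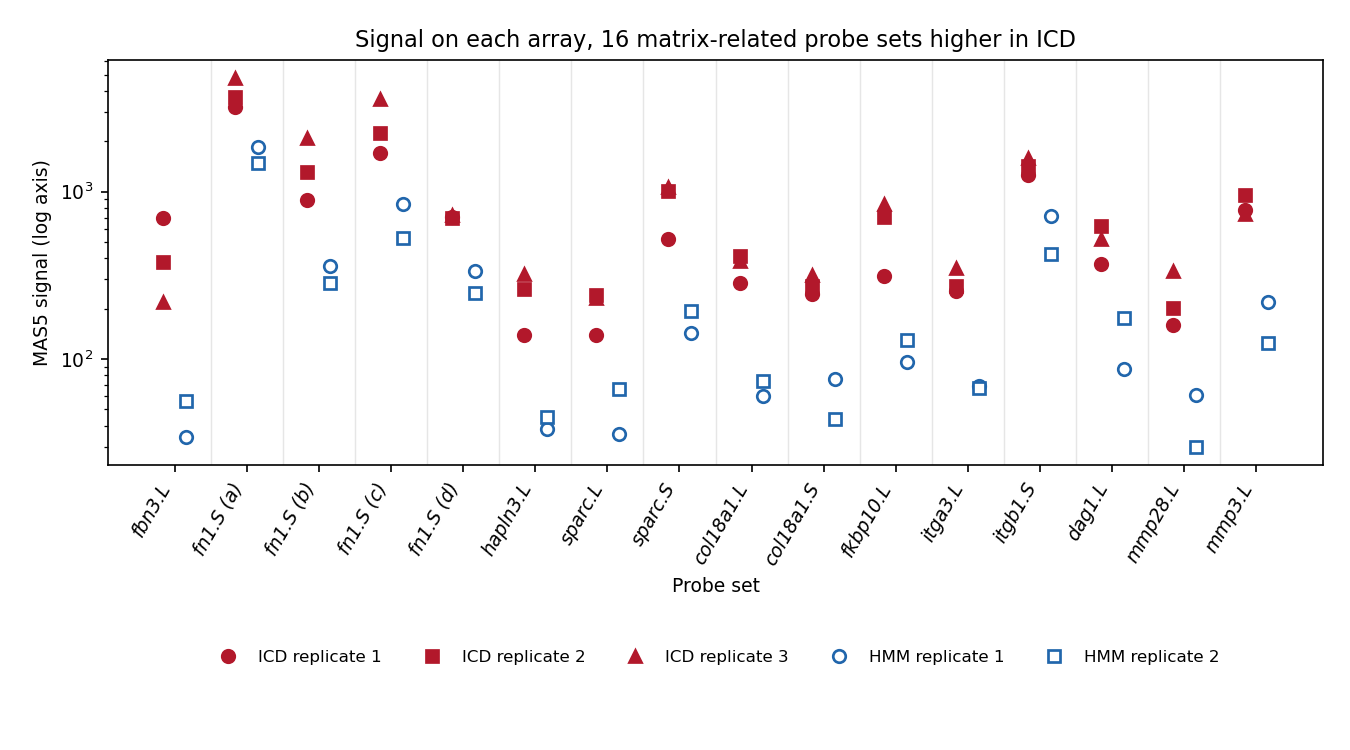
MAS5 signal (log axis) on each of the 5 arrays for the 16 matrix-related probe sets with higher signal in ICD. Filled red symbols are the 3 ICD arrays and open blue symbols the 2 HMM arrays, with circles for replicate 1, squares for replicate 2 and a triangle for ICD replicate 3; letters mark several probe sets of fn1.S, in the order of their probe set names. In each probe set all red symbols lie above both blue ones, and in fbn3.L the red circle (700.7) is the highest.

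Fibronectin, the fibril-forming glycoprotein that also coated the coverslips, was read by 4 probe sets of fn1.S, and all 4 rose. On the first, fn1.S (a), the signal was 3223.7, 3657.4 and 4751.3 in ICD and 1850 and 1477.4 in HMM. The difference was 1.21 ± 0.22 (SE) on the log2 scale, or 2.31-fold (limma adjusted p = 0.0302). On fn1.S (b) the ICD arrays read 892.7, 1313.6 and 2101.9 and the HMM arrays 359.7 and 284.1. Here the difference was 2.06 ± 0.37 (SE; limma adjusted p = 0.0271). The groups were apart on both, with ICD replicate 3 the highest and ICD replicate 1 the lowest of its group. The remaining probe sets, fn1.S (c) and fn1.S (d), differed by 1.84 and 1.28 (limma adjusted p = 0.0328 and 0.0308). On fn1.S (d) the ICD arrays spanned just 696 to 721.4, so the order of the ICD arrays seen on the others was not shared by every probe set of the gene. All 4 probe sets bear the same cluster number and read 1 gene, so they are not independent, and (c) is of a class whose oligonucleotides can match other transcripts. All 4 calls were lost without ICD replicate 3 (limma adjusted p = 0.0613 to 0.108), and that of fn1.S (a) was also lost in eBayes without trend (adjusted p = 0.0630).

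SPARC is a collagen-binding glycoprotein of basement membranes, and both homeologs of its gene rose. For sparc.S the ICD arrays read 521.9, 1007.7 and 1061.4, against 143.7 and 193.6 in HMM. The difference was 2.26 ± 0.36 (SE), or 4.80-fold (limma adjusted p = 0.0228). For sparc.L the signals were 139.4, 241.7 and 232.3 in ICD and 35.5 and 66.5 in HMM, with a difference of 1.90 ± 0.37 (SE; limma adjusted p = 0.0339). In both homeologs ICD replicate 1 was the lowest of the ICD arrays and HMM replicate 1 the lower of the HMM arrays.

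The fibrillin gene fbn3.L, whose product forms microfibrils, had the largest difference of the 35. It read 700.7, 380.1 and 219 in ICD and 34.1 and 56.4 in HMM. That is a difference of 2.98 ± 0.49 (SE), or 7.90-fold (limma adjusted p = 0.0234). Its ICD arrays ran in the reverse order of those of fn1.S (b), with replicate 1 the highest. A dimmer probe set of fbn3.L, which was not kept, read 65.3, 31.9 and 12.5 in ICD and 1.4 and 5.5 in HMM, so its groups were apart and its ICD arrays in the same order. The link protein gene hapln3.L, whose product ties hyaluronan to proteoglycans, read 138.6, 263.8 and 322.3 in ICD and 38.1 and 45 in HMM. Its difference was 2.31 ± 0.39 (SE; limma adjusted p = 0.0241). The homeolog hapln3.S was dimmer, at 33.4, 69.2 and 82.2 in ICD and 22.6 and 15.2 in HMM. At 1.38 it missed the threshold (limma adjusted p = 0.130). It passed in the fit without ICD replicate 1 (adjusted p = 0.0175). However, it read above the filter value of 42.6 on ICD replicates 2 and 3 alone. That fit keeps just those ICD arrays, through which it was selected, so its pass there is not a separate test. In all, 8 of the 9 kept probe sets of matrix glycoproteins rose, and by gene 5 of 6. The other 5 of that group, for fbn3.L, fbln1.L, tgfbi.L and tnc.L, were too dim to test, with no value above 65.3.

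Of 6 kept collagen probe sets 2 rose, those of col18a1 in both homeologs, and the fibrillar collagens did not pass. Type XVIII collagen belongs to epithelial and vascular basement membranes. For col18a1.L the signal was 285, 411.9 and 385.4 in ICD, against 59.8 and 74.4 in HMM. Its difference was 2.32 ± 0.28 (SE), or 4.99-fold (limma adjusted p = 0.0154). The S copy, col18a1.S, read 244.6, 273.8 and 316.7 in ICD and 75.6 and 43.7 in HMM, a difference of 2.15 ± 0.31 (SE; limma adjusted p = 0.0190). The fibrillar collagen I genes, typical of connective tissue, lay close to the filter value. The probe sets col1a1.S (a) and (b) differed by 0.51 and 0.55, and col1a2.L by -0.04 with a 95% interval from -0.93 to 0.85. Both of col1a1.S read above the filter value on ICD replicates 2 and 3 alone. For col1a2.L the arrays read 50.9, 84.1 and 110 in ICD and 97.9 and 65.9 in HMM, and the groups overlapped.

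The collagen VI gene col6a1.L showed how much 1 array could weigh. It read 28.6, 208.6 and 259.6 in ICD and 14.2 and 55.1 in HMM, so ICD replicate 1 lay between the HMM arrays. Its difference of 1.84 ± 0.91 (SE) did not pass (limma adjusted p = 0.333), and without ICD replicate 1 it was 2.77 and passed (adjusted p = 0.0118). The gene nid2.L, for a nidogen that links laminin to type IV collagen, read 272.9, 112.7 and 231.7 in ICD and 233.5 and 85 in HMM and did not pass, at 0.43 (95% interval -0.79 to 1.65). The other 14 collagen probe sets, all 4 for col4a1.L and col4a2.L and those for types II, III, V, VIII and IX among them, never read above 41.4. A low MAS5 signal does not show that a transcript is absent.

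Of the enzymes and chaperones that mature collagen in the endoplasmic reticulum, 1 of 4 kept probe sets rose. It belonged to fkbp10.L, a prolyl isomerase, with 315.2, 710.2 and 840.5 in ICD and 95.8 and 130.8 in HMM. The difference was 2.30 ± 0.44 (SE), or 4.92-fold (limma adjusted p = 0.0327). The lysyl hydroxylase gene plod3.L read 576.1, 719.3 and 802.5 in ICD and 355.4 and 375 in HMM. Its groups were apart, but the difference of 0.91 ± 0.24 (SE) did not pass (limma adjusted p = 0.0884). The collagen chaperone gene serpinh1.S read 26.5, 153.9 and 234.8 in ICD and 17.2 and 51.8 in HMM. Its groups overlapped through ICD replicate 1, and the difference was 1.56 (limma adjusted p = 0.372), or 2.43 without that array (adjusted p = 0.0143). The prolyl hydroxylase gene p4ha2.L differed by -0.02, with a 95% interval from -1.29 to 1.25. The probe set of plod1.S was not tested, because it read above the filter value on ICD replicate 2 alone. It read 12.8, 97.8 and 38.7 in ICD and 33.4 and 42.4 in HMM.

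**Figure D3:**
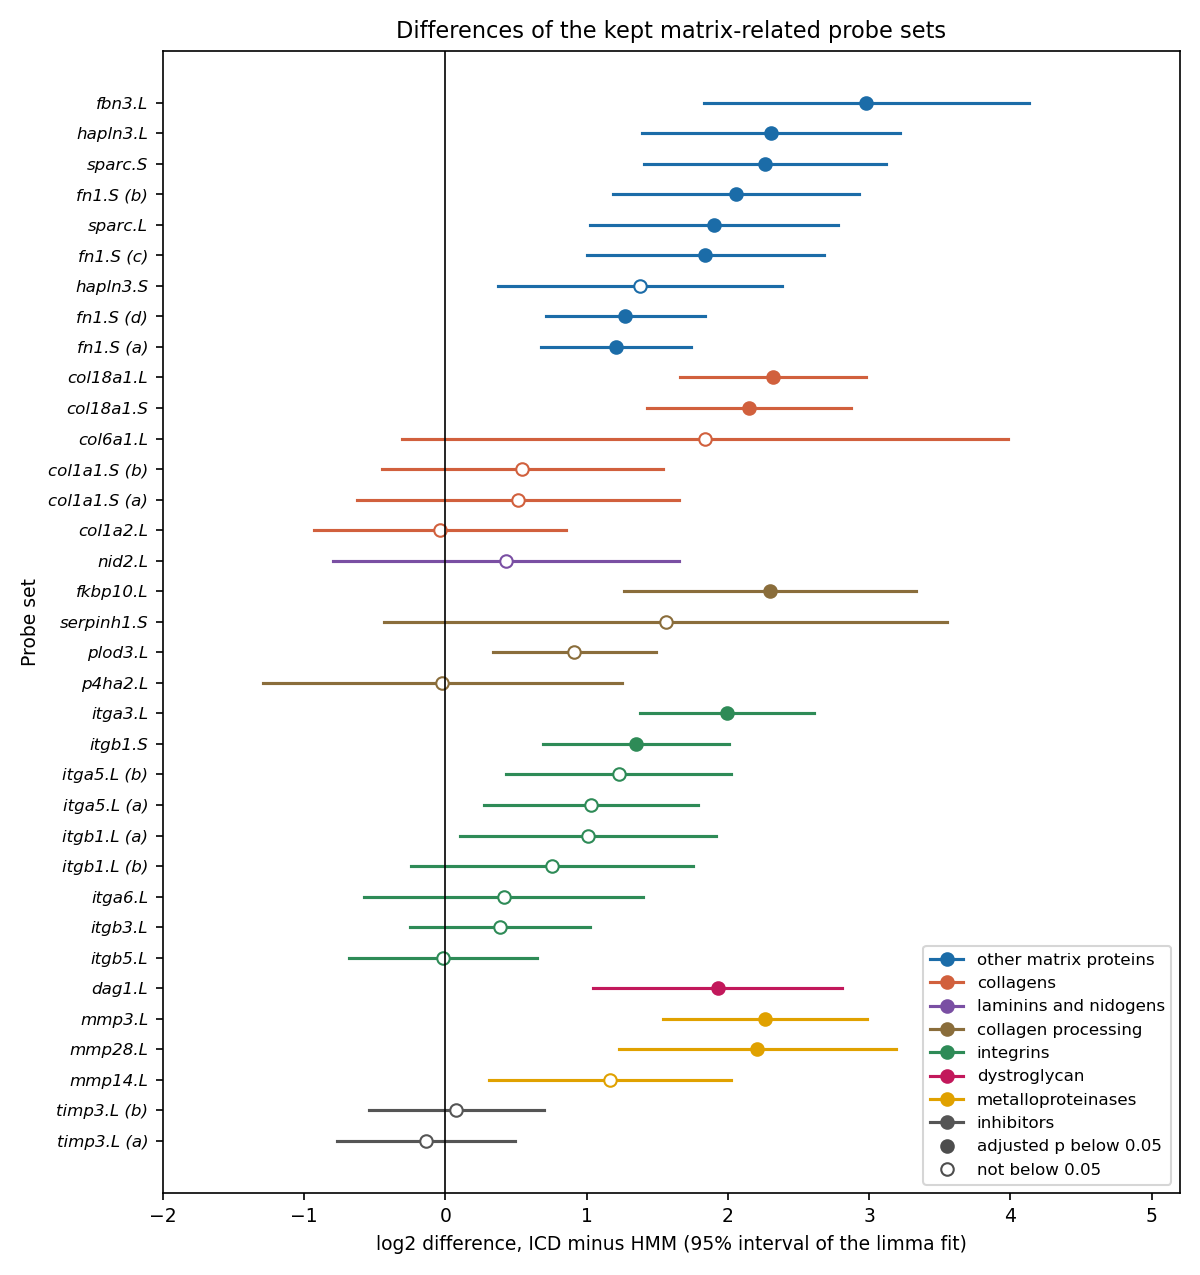
Difference in log2(signal + 5.9), ICD minus HMM, on the x axis with the 95% interval of the limma fit as a horizontal line, for the 35 kept matrix-related probe sets on the y axis, coloured by role. Filled circles have an adjusted p below 0.05 and open circles do not; the filled ones are 8 matrix glycoproteins, 2 collagens, 1 collagen-processing gene, 2 integrins, dystroglycan and 2 metalloproteinases, and the intervals of col6a1.L and serpinh1.S are the widest.

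Integrins are the main matrix receptors, each a dimer of an alpha and a beta chain. Of 31 integrin probe sets 9 were kept, 2 rose and 7 did not pass. The laminin-receptor chain itga3.L read 254.1, 271.7 and 349.4 in ICD and 68.7 and 67.4 in HMM. Its difference was 2.00 ± 0.26 (SE), or 3.99-fold (limma adjusted p = 0.0163). The 2 other probe sets of itga3.L were too dim to test. On the first the groups overlapped, with 5.3, 10.4 and 7.9 in ICD and 8.2 and 6.8 in HMM. On the second every ICD array lay below HMM, with 1.8, 2.2 and 2.9 in ICD and 9.6 and 3.5 in HMM, the opposite of the bright probe set. Another laminin-receptor chain, itga6.L, read 36.9, 73.1 and 60.6 in ICD and 57.7 and 26.9 in HMM, and its difference of 0.41 (95% interval -0.58 to 1.40) did not pass. Whether itga3.L and itga6.L differed from each other was not tested.

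The shared beta 1 chain gave 3 kept probe sets. For itgb1.S the ICD arrays read 1257.3, 1425.6 and 1596.3 and the HMM arrays 718.8 and 425. A difference of 1.35 ± 0.28 (SE) passed (limma adjusted p = 0.0398), but not in eBayes without trend (0.0590) or with no filter (0.0503). For itgb1.L (a) the ICD arrays were tight, at 1385.8, 1258.3 and 1323.2, and the HMM arrays far apart, at 1053.2 and 405.3. At 1.01 it missed the threshold (limma adjusted p = 0.207), and the difference was 1.69 without HMM replicate 1 (adjusted p = 0.0376) and 0.33 without HMM replicate 2. On itgb1.L (b) the groups overlapped, with a difference of 0.76. The fibronectin-receptor partner itga5.L had 2 kept probe sets. Their ICD arrays read 105.9, 131.9 and 164.6 on (a) and 164.3, 172.7 and 112.7 on (b), against 77.7 and 48.7 on (a) and 78.2 and 45.1 on (b) in HMM. The groups were apart on both, but the differences of 1.03 and 1.23 did not pass (limma adjusted p = 0.132 and 0.0963).

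The vitronectin-receptor chain itgb5.L did not pass, with 55.4, 56.2 and 71.3 in ICD and 67.1 and 55.9 in HMM. Its difference was -0.01 with a 95% interval from -0.68 to 0.65. The kept probe set for itgb3.L differed by 0.39 without passing. Like timp3.L (a), it is of the class whose oligonucleotides can match other transcripts. It bears the same cluster number as the probe sets of timp3.L, so its gene is uncertain. Another probe set of itgb3.L was too dim to test. On that one every ICD array lay below HMM, with 19.8, 22.7 and 8.9 in ICD and 29 and 28.3 in HMM, the opposite of the kept probe set. The other 22 integrin probe sets, those for alpha 2, alpha 2b, alpha 4, alpha 11, alpha v, beta 2 and beta 6 among them, never read above 42.7. A pair of probe sets matched the rule by their symbols only, itgb1bp2.L and itgbl1.L, whose products are not integrin chains, and both were too dim to test.

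Dystroglycan joins laminin to the cytoskeleton. The probe set of dag1.L read 368.5, 620.2 and 519.8 in ICD and 87.5 and 176.9 in HMM. It rose by 1.93 ± 0.37 (SE), or 3.81-fold (limma adjusted p = 0.0331). A probe set that carries both homeologs, dag1.L and dag1.S, and so stood outside the 100, read 133.5, 238 and 180.7 in ICD and 75 and 118.1 in HMM. At a difference of 0.89 it missed the threshold (limma adjusted p = 0.211). The probe set of dag1.S alone was too dim to test.

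Of the 14 metalloproteinase probe sets 3 were kept, and in each the ICD arrays lay above both HMM arrays, as in 20.4% of all kept probe sets. The stromelysin gene mmp3.L, named as the platform's annotation gives it, read 781.9, 952.3 and 732.2 in ICD and 219.2 and 124.5 in HMM. It rose by 2.26 ± 0.31 (SE), or 4.80-fold (limma adjusted p = 0.0165). The gene mmp28.L, whose human counterpart is made by skin keratinocytes, read 158.7, 200.9 and 336.9 in ICD and 61.1 and 30 in HMM. It rose by 2.21 ± 0.42 (SE), or 4.63-fold (limma adjusted p = 0.0311). The membrane-bound protease gene mmp14.L read 92.9, 151.2 and 207 in ICD and 58.9 and 62.2 in HMM, and missed the threshold at 1.16 (limma adjusted p = 0.132), which it passed in the fit without ICD replicate 1 (adjusted p = 0.0246). The remaining 11, for mmp1, mmp2, mmp7, both mmp9 genes, mmp11, mmp13l and mmp21, never read above 34.

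The inhibitor gene timp3.L, whose product binds the matrix and inhibits metalloproteinases, did not pass on either kept probe set. On timp3.L (a) the signal was 217.5, 180.9 and 242.4 in ICD and 266.7 and 204.6 in HMM, and on (b) it was 65.6, 78.5 and 75.9 in ICD and 71.8 and 66.3 in HMM. The groups overlapped on both. The differences were -0.14 (95% interval -0.77 to 0.50) and 0.08 (95% interval -0.54 to 0.70) (limma adjusted p = 0.825 and 0.906). Another probe set of timp3.L and those of timp2.L and timp2.S were too dim to test, as were all 6 thrombospondin probe sets, which never read above 17.8.

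Differences were smaller within replicate 1 than among the other arrays. ICD replicate 1 was the lowest of the ICD arrays in 27 of the 35 probe sets (77.1%), where this held for 41.8% of all kept probe sets. For hapln3.S and both probe sets of col1a1.S this was fixed by the filter, which they passed on ICD replicates 2 and 3 alone. The difference of ICD replicate 1 from HMM replicate 1 had a median of 0.78 over the 35, and that of ICD replicates 2 and 3 from HMM replicate 2 a median of 1.65, beside 0.0042 and 0.14 over all kept probe sets. The second difference was above 0 in 35 of 35 and the first in 26. The shares above 0 over all kept probe sets were not counted, so these counts have only the medians beside them. For hapln3.S and both probe sets of col1a1.S the filter alone put the second difference above 0. The first was the smaller in 31 of 35, against 59.8% of all kept probe sets. For fbn3.L the order was turned round, at 4.14 in replicate 1 and 2.24 in the others, and for dag1.L and itga3.L they were 2.00 and 1.65, and 1.80 and 2.10. The genes col6a1.L, serpinh1.S, hapln3.S and mmp14.L were called without ICD replicate 1 and not with it. In each of them ICD replicate 1 was the lowest ICD array. Their calls follow from those same values and are not a separate observation. ICD replicate 1 also had the lowest median signal (62.1, against 70 to 72.7). It had the fewest probe sets above 42.6 (8908, against 9290 to 9463). HMM replicate 2 was the lower HMM array in 22 of the 35, beside 5407 of all 9981 kept probe sets. The labels give no batch or date, and what set replicate 1 apart was not tested.

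**Figure D4:**
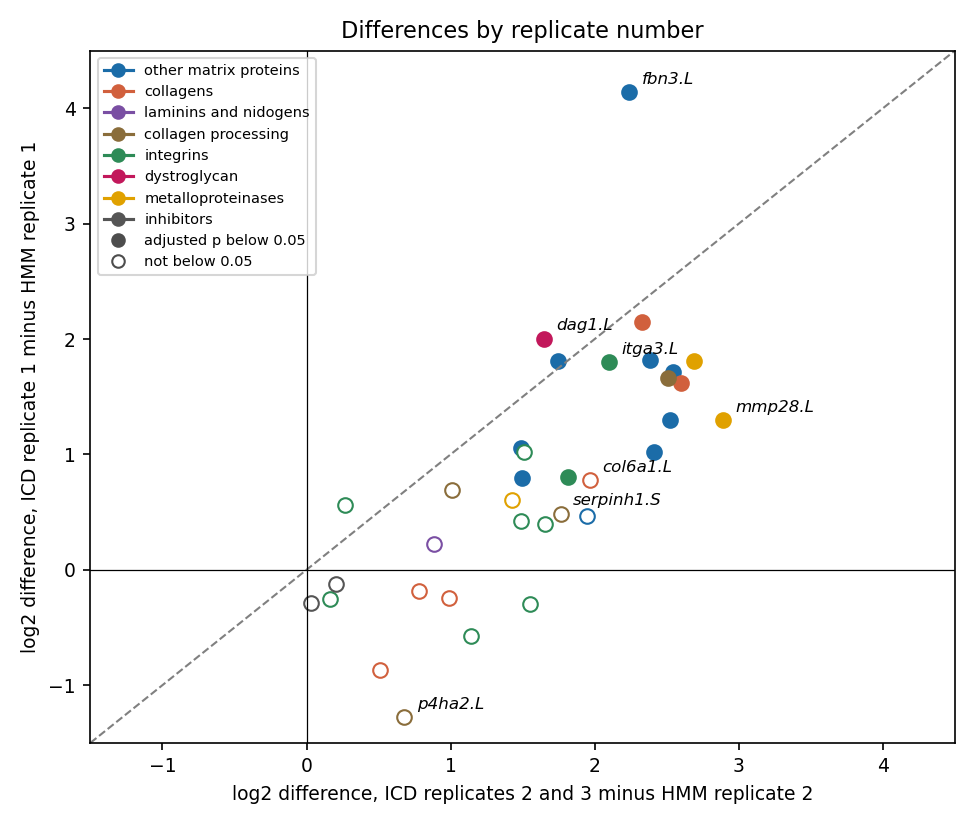
Difference in log2(signal + 5.9) between ICD replicate 1 and HMM replicate 1 on the y axis against that between ICD replicates 2 and 3 and HMM replicate 2 on the x axis, for the 35 kept probe sets, coloured by role, filled where the adjusted p was below 0.05. The dashed line marks equal differences; 31 points lie below it, all 35 lie right of 0, and fbn3.L lies far above the line.

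Other genes of matrix and adhesion, a list of 140 genes outside the rule, had 103 probe sets with 1 symbol, of which 68 were kept. Here 4 were higher in ICD, 1 was lower and 63 did not pass, with a median difference of 0.46 beside 0.08 over all kept probe sets. The share called was 7.35% (5.88% higher), beside 5.05% (1.55% higher and 3.5% lower) of all kept probe sets. Those that rose were both homeologs of the alpha-actinin gene actn1, which links integrin sites to actin, and 2 probe sets of the kinase gene src.S. For actn1.L the arrays read 1297.4, 1238.3 and 1665.7 in ICD and 422.1 and 378.4 in HMM, a difference of 1.78 (limma adjusted p = 0.0163). For actn1.S they read 1710.1, 2049.5 and 1740.2 in ICD and 584.5 and 545.5 in HMM, a difference of 1.68 (limma adjusted p = 0.0154). The brighter probe set of src.S read 392.6, 572 and 981.1 in ICD and 108.6 and 152.2 in HMM, a difference of 2.18 (limma adjusted p = 0.0302), and the other differed by 1.66. The homeolog src.L read 240.5, 209.1 and 223.4 in ICD and 166.8 and 77.8 in HMM. At a difference of 0.94 it did not pass (limma adjusted p = 0.197). The transmembrane protein gene adam22.L fell, with 17.5, 15.5 and 16.4 in ICD and 70.3 and 147.1 in HMM and a difference of -2.27 (limma adjusted p = 0.0239). Every ICD array lay below the filter value of 42.6, so it was kept through the HMM arrays, where it was high. With no filter the list likewise had 1 lower call. None of these 5 calls held in the fits lacking ICD replicate 2 or HMM replicate 2. In the limma fit lacking ICD replicate 2, 15 of the 68 had an unadjusted p under 0.05. The share over all kept probe sets there was not counted. In 30 of the 68 every ICD array lay above both HMM arrays and in 6 below, beside 20.4% and 17% of all kept probe sets.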

How the data were processed

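The deposited values are linear signal intensity values per probe set, made by the authors with MAS5, per the submitters' processing notes. MAS5 subtracts mismatch from perfect-match signal, so dim values are imprecise, and it scales arrays to a common mean, which removes differences in total RNA. The 2% trimmed mean was 200.03 on all 5 arrays, so no scaling was added. The number of arrays limits the precision. Of 15611 probe sets, 120 controls were left out. Platform annotation gave 1 symbol to 9304, several to 195 and none to 5992. Gene IDs of 98 of the 100 matrix-related probe sets were found in RefSeq (assembly Xenopus_laevis_v10.1) and no symbol changed; the annotation can be old. Probe sets with several symbols were used in an alternative only.

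The pseudocount (5.9) and filter (42.6) were the 10th and 40th percentiles of all non-control values. Differences are ICD minus HMM on the log2(signal + 5.9) scale and understate changes of dim genes. limma 3.58.1 (R 4.3.3) fitted lmFit and eBayes with a variance trend to 5 arrays, without covariates, two-sided; matplotlib 3.10.9 drew the figures. The fit was also run on simulated data with independent noise on each array. That run does not cover the deviations shared by replicate number described below. Named were all called probe sets, the brightest and those with the smallest p in each role, and a fixed set of genes; other genes were named after their values were seen. The members and lists were chosen with earlier results of these data known. Alternatives were quantile or median scaling, other pseudocounts, filters and variance models, each array left out, a block for the replicate number, thresholds of 0.1 and 0.01, and the mean of a gene's probe sets. A filter on mean signal was added after seeing the data.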

Additional observations from a re-analysis of the deposited data

How the results depend on the processing

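The count of 16 higher probe sets was 14 to 16 under quantile normalization, median centring, other pseudocounts, filters and variance models, and 16 with probe sets of both homeologs included. By gene it was 13 with the brightest or the mean probe set. At an adjusted p of 0.1 it was 18 and at 0.01 it was 0 in limma. No setting called a matrix-related probe set lower, or gave one an unadjusted p under 0.05 in that direction. With 1 array left out, the 16 became 0 to 20, all called probe sets (504) became 11 to 843, the higher ones 1 to 362 and the lower ones 10 to 481. In the same fits collagens gave 0 to 3 calls, collagen processing 0 to 2, integrins 0 to 3, dystroglycan 0 to 1, metalloproteinases 0 to 3, other matrix proteins 0 to 9, and the other list 0 to 11 higher and 0 to 1 lower. Integrins gave 1 call with no filter or without trend, in place of 2. The lower call of the other list was lost with a filter at the 60th percentile (0). The median of 1.28 was 0.14 with no filter, 1.84 with the 60th-percentile filter, and 1.06 to 1.44 with an array left out. Counts by role and of the other list under these settings were added after seeing the data. Fits with an array left out have fewer degrees of freedom, and filters change which probe sets are tested. Otherwise the cause was not tested.

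Replicates 1 and 2 share only a number. Across probe sets, deviations from the group mean correlated at 0.651 between the arrays numbered 1, at 0.508 between those numbered 2, and at 0.4 between ICD replicate 3 and HMM replicate 2. The HMM deviations mirror each other, so these are not separate checks. With the number as a replicate block, ICD replicate 3 is left in a block of its own and so without weight. The blocked fit also leaves fewer residual degrees of freedom than the main fit. In it 19 of the 35 were called (the 16 plus plod3.L, col6a1.L and itga5.L (b)). It called 1714 probe sets in all (744 higher, 970 lower), 2 in collagen processing and 15 higher on the other list. As the arrays share only a number, these counts cannot be read as a gain from pairing. Probe sets near the filter value (42.6) are limited most by signal over background.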
